A study of Mus musculus with 8 samples.

Results

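Sel1l and Syvn1 encode the membrane core of endoplasmic reticulum (ER) associated degradation, and their signal was followed in the livers of fasted mice and of mice fed ad libitum. The pair is represented by every deposited catalogue transcript that overlaps, on either strand, the GENCODE span of one of the 2 genes, which gave 3 of the 83057 transcripts in the table, 2 over Sel1l and 1 over Syvn1. The pair was chosen by the read counts of fasted against ad libitum livers in these same libraries, so that difference is described here with no test. Liver RNA came from 4 male C57BL/6 mice of about 20 weeks that had been fasted for 24 h, and from 4 matched males that had kept free access to food. All mice came from the Jackson Laboratory, were housed in groups, carried no stated genetic change, were assigned at random and were killed at 10 am. Each was made as a stranded total-RNA library and is labelled as a separate biological replicate. The table counts reads over transcripts of a non-coding RNA catalogue (mm10), so the values below are reads at these places and not the level of the full mRNAs.

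ER-associated degradation removes misfolded proteins from the ER. Syvn1 encodes synoviolin (HRD1), a ubiquitin ligase in the ER membrane, and Sel1l encodes the adaptor that holds substrates and keeps the ligase stable. Substrates are drawn back through the membrane, ubiquitinated and handed to the proteasome. In mouse liver the complex is known for limiting the amount of several regulators of metabolism and of the unfolded protein response, the programme that raises ER capacity when misfolded protein builds up. Both genes are themselves known targets of that response.

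Because the catalogue transcript of Syvn1 lies across its start site, and because the ER stress response element is a known route of control for such genes, the 250 bases before each start are shown, from RefSeq on GRCm38.p6 (mm10). Capitals mark the best match to the ER stress response element, CCAAT and CCACG with 9 bases of any kind between them, which is known to bind ATF6 together with NF-Y.

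Syvn1, chr19:6046326-6046575, plus strand: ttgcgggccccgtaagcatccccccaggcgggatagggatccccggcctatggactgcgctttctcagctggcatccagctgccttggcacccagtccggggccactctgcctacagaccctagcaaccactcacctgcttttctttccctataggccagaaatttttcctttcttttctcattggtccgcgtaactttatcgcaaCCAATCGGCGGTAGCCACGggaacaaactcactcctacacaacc

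Sel1l, chr12:91849158-91849407, minus strand: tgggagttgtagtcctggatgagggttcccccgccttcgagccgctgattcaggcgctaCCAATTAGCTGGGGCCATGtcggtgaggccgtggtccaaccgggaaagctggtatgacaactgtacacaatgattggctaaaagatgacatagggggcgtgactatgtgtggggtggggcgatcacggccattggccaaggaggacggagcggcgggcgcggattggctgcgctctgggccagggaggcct

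Syvn1 had an exact match, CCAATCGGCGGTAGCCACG, ending 26 bases before the start. The best match of Sel1l, CCAATTAGCTGGGGCCATG, differed at 1 of the 10 fixed letters and ended 173 bases before the start. Searched on both strands, the exact element stood in 37 of 32851 mouse promoter windows of this length (0.113%). Among 100 other ER genes with a window, it stood in 8, namely Calr, Canx, Creld2, Derl3, Dnajc3, Hsp90b1, Hspa5 and Pdia6. The second form of the element, ATTGG and CCACG with 1 base between them, and the element TGACGTGG were found in neither window of the pair, against 0.0304% and 0.563% of all windows. The CCAAT box, which is part of the first element, was found 4 times before Sel1l and 2 times before Syvn1, and 33.8% of all windows held at least 1. A match is a run of letters and says nothing of binding in these livers.

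Before the values, some properties of the libraries bear on them. Without the mitochondrial 16S rRNA, which is empty in a single ad libitum library, totals were 90243439 to 119486211 reads in fasted libraries and 51107745 to 68691606 reads in ad libitum libraries. Most counts are even numbers, for a reason not given in the sources used here, and the share of odd counts among transcripts with 21 to 200 reads was 16.5 to 17.8% in fasted replicates 1 to 3, 10.8% in fasted replicate 4 and 9.21 to 10.3% in ad libitum libraries. Fasted replicates 1 to 3 therefore stand apart. The log2 changes of the pair, and those of some other genes, are given also for fasted replicate 4 alone. A single library has no spread of its own, so SEs and adjusted p-values given for it rest on the spread of the other libraries. The strand of reads appears not to have been used in counting. In 28 of 30 pairs of single-exon transcripts that cover the same bases on opposite strands, the 2 counts lay within 1.5-fold of each other. The 4 measured hepatocyte markers of 9 summed to 2.74e+03 to 3.57e+03 CPM (counts scaled to library totals) in fasted livers and 1.58e+03 to 2.39e+03 CPM in ad libitum livers, and each list of other liver cell types to under 100 CPM in every library. The hepatocyte sum is mostly Apoa2, and its members went different ways. Apoa2, Cps1 and Hnf4a rose by 0.57, 1.32 and 1.01 on the log2 scale (adjusted p = 0.023, 1.6e-04 and 0.0042, edgeR's quasi-likelihood test over all genes). Hnf4a was read from an opposite-strand transcript only. Ttr fell by 1.29 (adjusted p = 3.9e-06, same test).

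The 3 transcripts cover small parts of the genes. Sel1l (ENSMUSG00000020964.14) lies at chr12:91806043-91849157 on the minus strand, and its 2 transcripts cover 10.2% of its 8555 annotated exonic bases. The first, NONMMUT015240.2 (chr12:91808339-91809031, 693 bases, 1 exon, minus strand), lies wholly inside the last exon and past the coding sequence, and is called the last-exon transcript below. The second, NONMMUT015241.2 (chr12:91848048-91849140, minus strand), starts 17 bases after the annotated start of Sel1l. It has 182 bases in exon 1, of which 73 are coding, and 911 bases in intron 1, and is called the first-intron transcript. Syvn1 (ENSMUSG00000024807.18) lies at chr19:6046576-6053712 on the plus strand, and its 1 transcript covers 8.75% of 4859 exonic bases. This transcript, NONMMUT033652.2 (chr19:6045060-6047000, 1941 bases, 1 exon), is annotated on the minus strand, opposite to Syvn1. Along its own strand it begins 424 bases past the Syvn1 start, inside exon 1 and before the coding sequence, and ends 1516 bases upstream of that start. Its span holds the whole promoter window printed above, with the exact element. No catalogue transcript lies in an intron alone, and none has the exon structure of an annotated transcript. All 3 have coding-potential scores (CNCI) under 0, the side that marks non-coding sequence, at -0.0646 and -0.199 over Sel1l and -0.000903 over Syvn1.

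**Figure D1:**
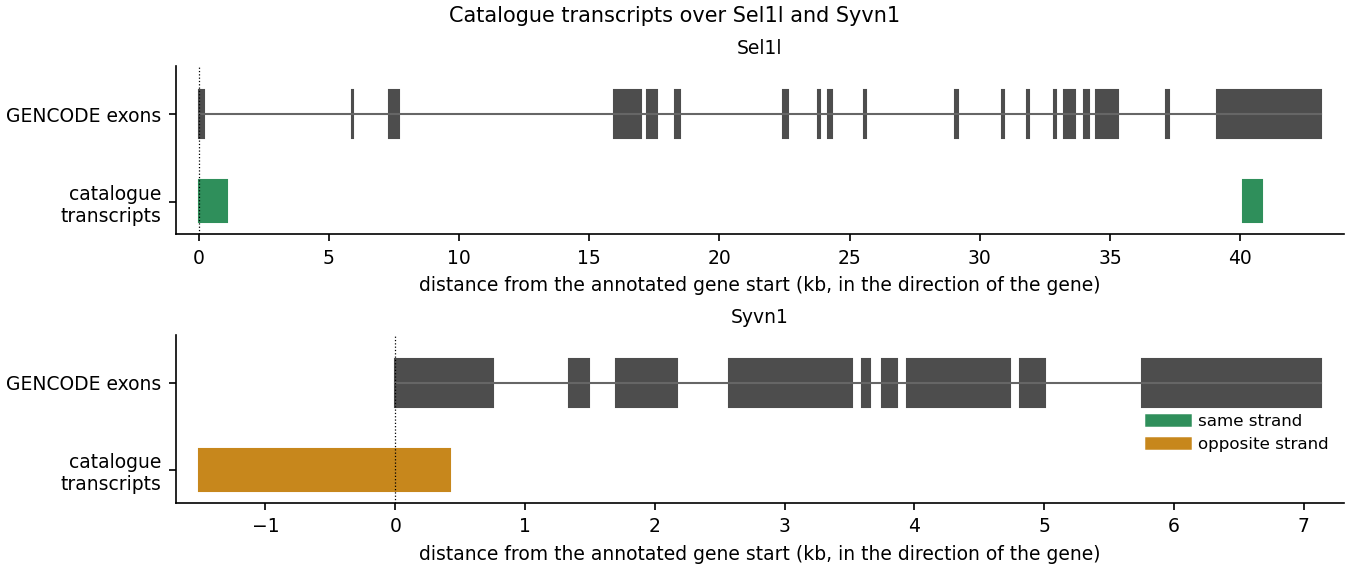
Maps of Sel1l (top) and Syvn1 (bottom), with the distance from the annotated start in kilobases on the x axis. Grey boxes are GENCODE exons, green boxes catalogue transcripts on the strand of the gene and the orange box the transcript on the opposite strand, which reaches 1516 bases upstream of the Syvn1 start.

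Reads in the last exon of Sel1l were lower in fasted livers than in ad libitum livers. The last-exon transcript held 5004, 4447, 2688 and 3034 reads in fasted replicates 1 to 4, against 3950, 3099, 2348 and 3845 reads in ad libitum replicates 1 to 4. Scaled to the library totals with TMM factors, this was 39.9, 33.0, 33.3 and 37.8 CPM in fasted livers and 56.4, 55.7, 46.3 and 55.2 CPM in ad libitum livers. On this scale every fasted library lay below every ad libitum library. The mean was 36.0 ± 3.41 CPM in fasted livers and 53.4 ± 4.77 CPM in ad libitum livers (SD, n = 4 each), a log2 change of -0.57 ± 0.11 (SE), or 67.4% of the ad libitum level. The TMM factors were 1.17, 1.13, 0.855 and 0.889 in fasted replicates 1 to 4 and 0.97 to 1.02 in ad libitum livers. By library totals without them, fasted replicate 1 (5004 of 107260798 reads) lay just above ad libitum replicate 3 (2348 of 51107745 reads). Fasted replicate 4 alone stood at -0.50 against the ad libitum libraries in the fit. By plain difference of mean log2 CPM, it stood at -0.49 and fasted replicates 1 to 3 at -0.60. In bulk tissue RNA, fewer cells that express a gene and less RNA per cell cannot be told apart.

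The first-intron transcript of Sel1l did not share that difference. It held 679, 616, 395 and 221 reads in fasted livers, against 268, 289, 201 and 304 reads in ad libitum livers. Scaled, this was 5.41, 4.57, 4.89 and 2.76 CPM in fasted livers and 3.83, 5.20, 3.96 and 4.36 CPM in ad libitum livers. The groups overlap, with fasted replicate 4 below all other libraries and fasted replicate 1 above them. The mean was 4.41 ± 1.15 CPM in fasted livers and 4.34 ± 0.616 CPM in ad libitum livers (SD, n = 4 each), a log2 change of 0.03 ± 0.18 (SE). Fasted replicate 4 alone stood at -0.65 in the fit. By plain difference of mean log2 CPM, it stood at -0.64, whereas fasted replicates 1 to 3 stood at 0.20. The overall change is smaller than its SE, and its sign also turned when single libraries were left out. It ran from -0.08 without fasted replicate 1 to 0.18 without fasted replicate 4. Across 5878 tested single-exon transcripts that lie wholly in introns, the median log2 change was -0.02, and it was -0.04 for fasted replicate 4 alone. The first-intron transcript is not of that kind, as it also covers part of exon 1.

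Reads across the start of Syvn1 were also lower in fasted livers. Its opposite-strand transcript held 852, 946, 410 and 439 reads in fasted livers, against 850, 792, 433 and 675 reads in ad libitum livers. Scaled, this was 6.79, 7.02, 5.07 and 5.47 CPM in fasted livers and 12.1, 14.2, 8.54 and 9.69 CPM in ad libitum livers. The groups do not overlap, although ad libitum replicates 3 and 4 lie nearer to the fasted libraries than ad libitum replicates 1 and 2 do. The mean was 6.09 ± 0.958 CPM in fasted livers and 11.2 ± 2.55 CPM in ad libitum livers (SD, n = 4 each), a log2 change of -0.87 ± 0.16 (SE), or 54.7% of the ad libitum level. Fasted replicate 4 alone stood at -1.03 ± 0.27 (SE). Reads of the Syvn1 mRNA that start in exon 1 and reads of an opposite-strand RNA cannot be told apart in this count.

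Scaled with TMM factors, 2 of the 3 transcripts thus lay wholly lower in fasted livers. Of the 40321 transcripts tested in the table, 10.4% did so, while 17.5% passed the test in either direction. With reads summed per gene, Sel1l had 45.3, 37.6, 38.2 and 40.6 CPM in fasted livers, against 60.3, 60.9, 50.3 and 59.5 CPM in ad libitum livers. The groups again do not overlap on this scale, whereas by library totals fasted replicate 1 lies above ad libitum replicate 3. The log2 change of the sum was -0.52 ± 0.10 (SE), with -0.51 for fasted replicate 4 alone. The last-exon transcript supplies most of these reads. With TMM factors both genes of the pair lay wholly lower, and 13.1% of 13034 tested genes did so, while 24.6% passed the test in either direction.

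**Figure D2:**
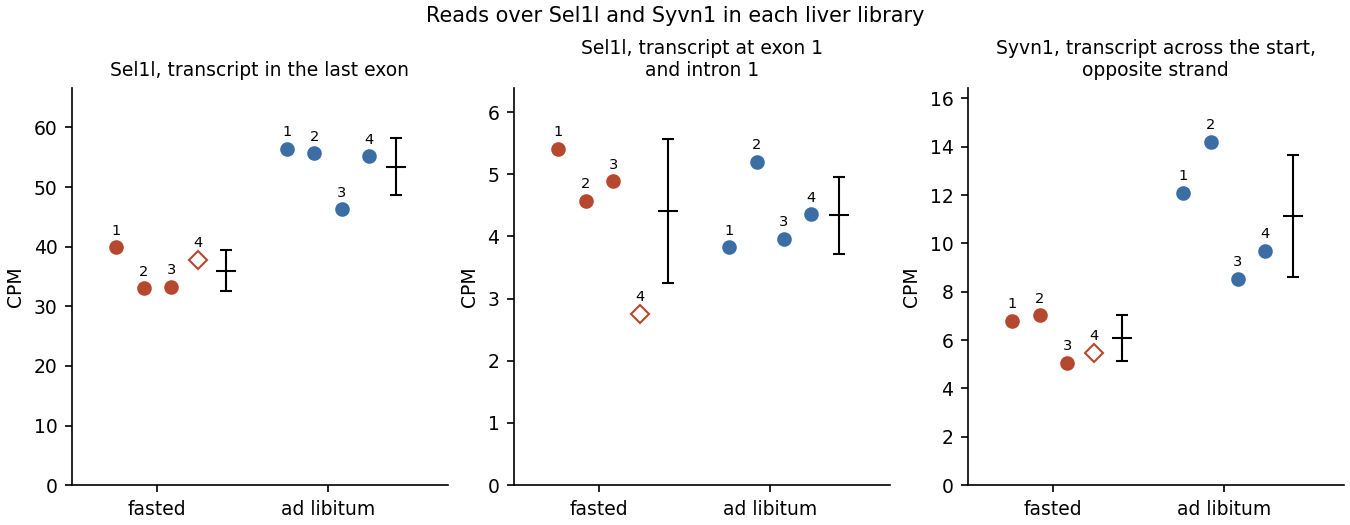
CPM of the 3 catalogue transcripts in each library, fasted left of ad libitum, with replicate numbers above the points, fasted replicate 4 as an open diamond, and black bars for the mean ± SD of 4 libraries. With TMM factors, the last-exon transcript of Sel1l and the Syvn1 transcript show no overlap between groups. They lie at 33.0 to 39.9 and 5.07 to 7.02 CPM in fasted livers, against 46.3 to 56.4 and 8.54 to 14.2 CPM in ad libitum livers. For the first-intron transcript of Sel1l the groups overlap.

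Per kilobase of transcript, the 3 places differ widely in level. The last-exon transcript of Sel1l stood at 51.9 ± 4.92 CPM per kilobase in fasted livers and 77.1 ± 6.88 CPM per kilobase in ad libitum livers (SD, n = 4 each). The first-intron transcript stood at 4.05 ± 1.06 CPM per kilobase in fasted livers and 3.99 ± 0.567 CPM per kilobase in ad libitum livers. The Syvn1 transcript stood at 3.14 ± 0.494 CPM per kilobase in fasted livers and 5.75 ± 1.31 CPM per kilobase in ad libitum livers. In both groups the last exon of Sel1l was highest. The first-intron and Syvn1 transcripts overlapped in level, at 2.54 to 4.98 and 2.61 to 3.61 CPM per kilobase in fasted livers and 3.52 to 4.78 and 4.40 to 7.34 CPM per kilobase in ad libitum livers. The places differ in kind, one past a coding sequence, one mostly intronic and one across a start site, so these levels do not rank the 2 mRNAs.

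Set against the last exon of the same gene, the first-intron transcript of Sel1l separates fasted replicates 1 to 3 from the other 5 libraries. Its count covers 182 bases of exon 1 as well as intron 1. Reads of the 2 parts cannot be told apart, so the ratio is not a measure of intron against exon. Per kilobase the first-intron transcript came to 8.65, 8.83, 9.37 and 4.64% of the last-exon signal in fasted replicates 1 to 4, and to 4.33, 5.95, 5.46 and 5.04% in ad libitum replicates 1 to 4. Fasted replicate 4 lies within the ad libitum range and the other 3 fasted libraries lie above it. The mean was 7.87 ± 2.2% in fasted livers and 5.19 ± 0.686% in ad libitum livers (SD, n = 4 each). Those 3 libraries are the ones with the high share of odd counts, and what part this has in the ratio was not tested. The share of all reads in transcripts that lie wholly in introns does not separate the same libraries. It was 1.86, 1.81, 1.33 and 1.44% in fasted livers and 1.54 to 1.67% in ad libitum livers. The Syvn1 transcript came to 6.08, 7.60, 5.45 and 5.17% of the last-exon signal of Sel1l per kilobase in fasted livers, against 7.68, 9.12, 6.58 and 6.27% in ad libitum livers. These groups overlap, and within both groups replicates 1 and 2 lie above replicates 3 and 4. The means, 6.07 ± 1.09% in fasted livers and 7.41 ± 1.29% in ad libitum livers (SD, n = 4 each), lie closer together than the libraries of either group do.

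**Figure D3:**
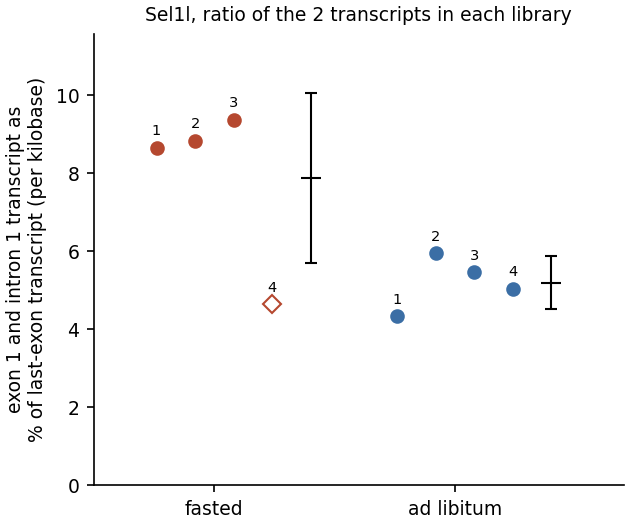
The first-intron transcript of Sel1l as a percentage of its last-exon transcript, both per kilobase, in each library, with fasted left of ad libitum and black bars for the mean ± SD of 4 libraries. Fasted replicates 1 to 3 lie at 8.65 to 9.37%, above fasted replicate 4 (open diamond) at 4.64% and the ad libitum libraries at 4.33 to 5.95%.

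The nearest catalogue transcripts just outside the spans show what surrounds the pair. On the strand of Syvn1, NONMMUT033654.2 (chr19:6046106-6046365, 260 bases) ends 211 bases before the Syvn1 start, wholly within the opposite-strand transcript. It held 4 to 16 reads per library, which is 0.306, 0.456, 0.381 and 0.288 CPM per kilobase in fasted livers and 0.549, 0.553, 0.303 and 0.552 CPM per kilobase in ad libitum livers. With these reads taken off, the rest of the opposite-strand transcript held 3.99, 4.10, 2.96 and 3.21 CPM per kilobase in fasted livers and 7.14, 8.39, 5.03 and 5.68 CPM per kilobase in ad libitum livers. How reads that fall in both transcripts were counted is not given in the sources used here. Within 100 kb, Sel1l has 1 coding neighbour, Ston2, which has no catalogue transcript. Syvn1 has 18, of which 3 could be tested. Pola2, a subunit of DNA polymerase alpha, averaged 1.83 ± 0.228 CPM in fasted livers and 2.62 ± 0.171 CPM in ad libitum livers (log2 change -0.52 ± 0.14 SE, adjusted p = 0.02 by edgeR's quasi-likelihood test over all genes). That call did not hold for fasted replicate 4 alone (adjusted p = 0.47). Naaladl1 and Snx15 did not pass, at log2 changes of -0.36 ± 0.41 and 0.04 ± 0.17 (SE, adjusted p = 0.57 and 0.90).

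Among 5227 coding genes, the pattern over the 8 libraries most like that of the Sel1l sum was sought by the root mean square difference of centred log2 CPM (pseudocount 0.05). The 5 nearest were Zbtb8os, Lmbrd2, Ube2m, Fam168a and Cd164, at 0.0680 to 0.0849. Cd164, for example, had 69.7, 65.7, 64.3 and 69.9 CPM in fasted livers and 90.8, 94.2, 88.9 and 96.4 CPM in ad libitum livers. For Syvn1 the 5 nearest were Nfxl1, Cad, Lactb2, Glo1 and Sdc2, at 0.110 to 0.137. Glo1, which encodes glyoxalase, had 162, 151, 130 and 162 CPM in fasted livers and 291, 333, 212 and 269 CPM in ad libitum livers, and ad libitum replicate 3 is the lowest of its group, as it is for Syvn1. The distance between Sel1l and Syvn1 themselves was 0.263, so that 1637 genes lay nearer to Sel1l than Syvn1 did and 124 lay nearer to Syvn1 than Sel1l did. All these genes share the library totals, and the group difference is part of the measure.

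The pair was then placed beside 129 other genes of the ER, in 5 lists. Of these, 58 had a catalogue transcript over an exon, 55 could be tested, 7 rose and 13 fell in fasted livers, and 35 did not pass (edgeR's quasi-likelihood test, Benjamini-Hochberg adjustment over all genes). The shares are 12.7% up and 23.6% down, with a median log2 change of -0.08, against 13.2% up, 11.3% down and a median of 0.00 over all 13034 tested genes. For fasted replicate 4 alone, 4 rose and 6 fell, against 2.99% and 1.93% of all genes, and all 20 genes had the same sign there. With each library left out in turn, the count ran from 14, without fasted replicate 3, to 25, without fasted replicate 4. In 21 genes most reads came from exonic transcripts on the strand of the gene, as in Sel1l, and of these 1 rose and 8 fell (median -0.26). Of the other 34, among which Syvn1 would fall, 6 rose and 5 fell (median 0.14), a split chosen after the values were seen.

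Nearest to the pair stand the other ERAD genes, of which 26 were tested, 5 rose (19.2%) and 4 fell (15.4%). Their median log2 change was 0.10. Over all tested genes, the background for the lists below too, 13.2% rose and 11.3% fell, with a median of 0.00. Uggt1, the folding sensor that marks unfinished glycoproteins, averaged 20.1 ± 1.34 CPM in fasted livers and 45.7 ± 3.42 CPM in ad libitum livers (SD, n = 4 each), with a log2 change of -1.18 ± 0.09 (SE, adjusted p = 1.2e-05). Edem2 and Edem3, which take part in trimming the mannose of substrates bound for the ligase complex, fell by 0.68 ± 0.12 and by 0.44 ± 0.11 on the log2 scale (adjusted p = 0.0025 and 0.014). Svip, an inhibitor of the pathway, fell by 0.55 ± 0.10 (adjusted p = 0.0020). Insig2, which anchors sterol sensing in the ER membrane, had 112, 138, 107 and 161 CPM in fasted livers, against 42.4, 48.8, 43.5 and 36.6 CPM in ad libitum livers, a log2 change of 1.60 ± 0.14 (adjusted p = 2.4e-05). The ubiquitin chain elongation factor Ube4b, the p97 cofactors Ufd1 and Ubxn8 and the ligase Rnf103 rose by 0.78, 0.74, 0.69 and 0.64 (adjusted p = 4.7e-04, 0.0032, 0.019 and 0.0045), with all or most of their reads on opposite-strand transcripts. For fasted replicate 4 alone, Edem3, Svip, Ufd1 and Rnf103 missed the threshold, at log2 changes of -0.39, -0.40, 0.49 and 0.36 (adjusted p = 0.25, 0.14, 0.20 and 0.28).

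Of 9 tested sensors and factors of the unfolded protein response, which controls both genes of the pair, 1 rose and 3 fell, and for fasted replicate 4 alone none rose and 2 fell, Ern1 and Eif2ak3. Eif2ak3, the sensor PERK, stood at -0.81 there (adjusted p = 0.027) and at -0.26 over all libraries (adjusted p = 0.28), with all its reads on opposite-strand transcripts. Ern1, the sensor IRE1α and a reported substrate of the SEL1L and synoviolin complex, had 16.2, 19.9, 14.9 and 16.6 CPM in fasted livers, against 46.1, 47.3, 38.7 and 38.9 CPM in ad libitum livers. The groups are far apart, with a log2 change of -1.34 ± 0.11 (SE, adjusted p = 2.2e-05), and of -1.37 for fasted replicate 4 alone (adjusted p = 9.5e-04). Like Sel1l it has 2 same-strand transcripts, of which the one wholly in exons fell by 1.48 ± 0.13 and the one with 235 of 2554 bases in exons by 0.71 ± 0.11 (adjusted p = 8.4e-06 and 8.4e-04 over all transcripts). Atf6, the sensor that binds the element printed above, averaged 63.3 CPM in fasted livers and 97.6 CPM in ad libitum livers, a log2 change of -0.62 ± 0.12 (adjusted p = 0.0037), and of -0.52 for fasted replicate 4 alone (adjusted p = 0.15). Ddit3, which encodes CHOP, fell by 0.37 ± 0.12 (adjusted p = 0.036) and stood at -0.57 for fasted replicate 4 alone (adjusted p = 0.079). Atf6b passed with a log2 change of 2.68 ± 0.74 (adjusted p = 0.025) on a level of 0.42 CPM in fasted livers and 0.0644 CPM in ad libitum livers, and stood at 0.61 for fasted replicate 4 alone (adjusted p = 0.81). Of 3 tested substrates reported for the complex, Entpd5 rose, at 10.7 ± 2.01 CPM in fasted livers and 5.6 ± 1.42 CPM in ad libitum livers (log2 change 0.93 ± 0.20 SE, adjusted p = 0.0076), and Ppargc1b, at 0.07, did not pass. Several passing genes were read mostly outside their annotated exons, with 291 of 1860 bases exonic for Edem2, 73 of 1847 for Entpd5, 122 of 1921 for Ufd1, 118 of 1564 for Ubxn8 and 846 of 2973 for the most abundant transcript of Ube4b. A transcript counted for Svip shares 2 of its 2468 bases with the gene, and for transcripts of several exons, such as the others of Svip, exon positions are not known beyond their ends.

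Of 12 tested genes of ER translocation and N-glycosylation, 5 fell and none rose. Ssr3 and Ssr1, subunits of the translocon-associated complex, fell by 0.91 ± 0.10 and by 0.97 ± 0.09 on the log2 scale (adjusted p = 1.1e-04 and 4.6e-05). The signal peptidase subunit Sec11c, the oligosaccharyltransferase subunit Magt1 and Dpagt1, which starts glycan assembly, fell by 0.83, 0.55 and 0.31 (adjusted p = 0.017, 0.012 and 0.046), and none of these passed for fasted replicate 4 alone, where they stood at -1.06, -0.51 and -0.11 (adjusted p = 0.13, 0.23 and 0.76). Of 6 tested chaperones and folding enzymes, the oxidase Ero1lb fell by 0.57 ± 0.18 (adjusted p = 0.042), stood at -0.81 for fasted replicate 4 alone (adjusted p = 0.17), and the rest did not pass. The groups overlap for Atf6b, Ddit3, Dpagt1 and Ero1lb, and all or most of their reads came from opposite-strand transcripts. Of the genes with an exact element in their window, Hspa5, Calr, Pdia6, Creld2 and Derl3 have no catalogue transcript and were not analysed here. Canx, Hsp90b1 and Dnajc3, which also have it, stood at -0.08, -0.14 and -0.13. None of them passed (adjusted p = 0.62, 0.45 and 0.60, edgeR's quasi-likelihood test). Most reads of Canx came from same-strand exonic transcripts, and most of Hsp90b1 and Dnajc3 from opposite-strand ones. The one of Hsp90b1, with 101914 reads over all libraries, also overlaps 1810014B01Rik, so its value is not a clear measure of Hsp90b1.

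Markers of other cell types differed between libraries too. The 6 stellate cell markers, all measured, summed to 58.0 to 76.9 CPM in fasted replicates 1 to 3, 29.1 CPM in fasted replicate 4 and 22.6 to 39.6 CPM in ad libitum livers, with Des under 0.1 CPM throughout. Reln alone, read from opposite-strand transcripts, carries the higher sum, at 45.2, 51.9, 59.5 and 11.4 CPM in fasted livers and 6.86 to 13.7 CPM in ad libitum livers. Of the markers read from same-strand exons, Lrat and Col1a1 fell by 0.92 and 1.08 (adjusted p = 0.027 for both, edgeR's quasi-likelihood test). Pdgfrb, at -0.51, did not pass (adjusted p = 0.086, same test). Dcn, read from same-strand transcripts mostly outside its exons, went the other way, at 0.24 ± 0.16 (SE), and did not pass (adjusted p = 0.31, same test). Its log2 change was 0.42 for fasted replicate 4 alone. For fasted replicate 4 alone, Lrat and Col1a1 stood at -0.75 and -0.33 and did not pass (adjusted p = 0.42 and 0.73). The 2 measured macrophage markers of 5 summed to 3.4 to 3.99 CPM in fasted livers and 4.01 to 5.48 CPM in ad libitum livers. Most of that sum is 1 transcript opposite to Csf1r that also overlaps Hmgxb3, with 2526 reads over all libraries. The same-strand transcript of Csf1r held 6 reads and Adgre1 171, so the sum is not a clear measure of macrophages. For endothelial cells, 3 of 5 markers summed to 3.19 to 5.48 CPM in fasted livers and 3.0 to 3.7 CPM in ad libitum livers. The 4 measured cholangiocyte markers of 5, with Krt7 and Epcam under 0.1 CPM throughout, summed to 0.817 to 1.3 CPM in fasted livers and 0.863 to 1.97 CPM in ad libitum livers. The 2 measured lymphocyte and neutrophil markers of 4 summed to 5.35 to 8.25 CPM in fasted livers and 5.93 to 9.29 CPM in ad libitum livers, and no erythroid marker was measured. What part cell make-up has in the differences of the pair was not tested.

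**Figure D4:**
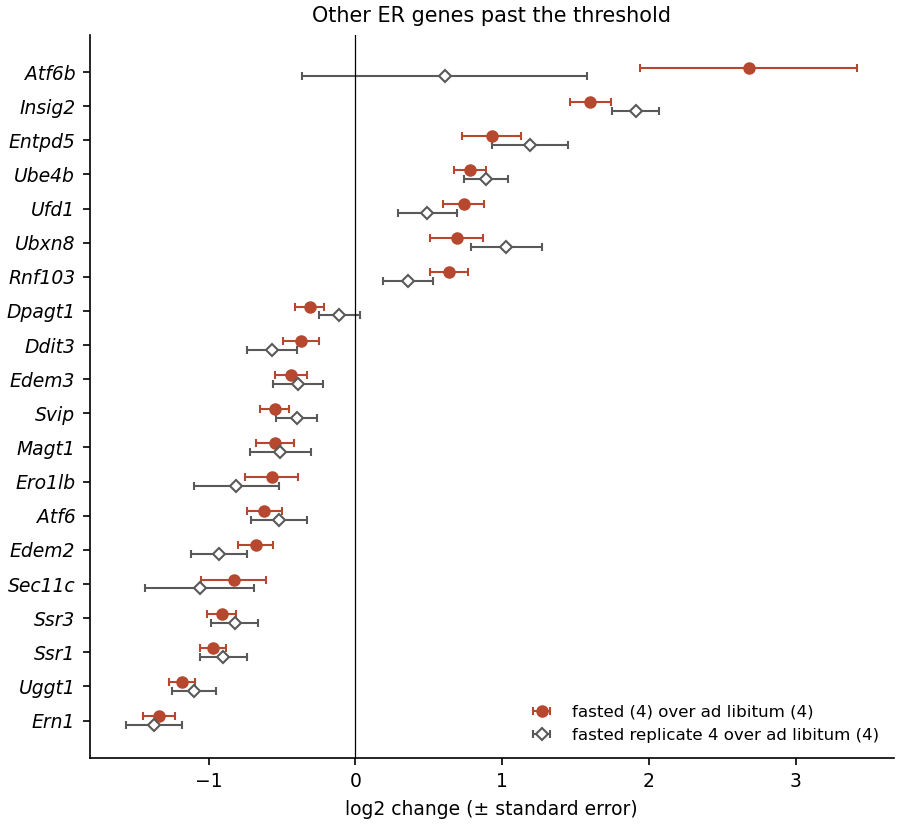
Log2 change of the 20 other ER genes that passed, on the x axis, with the SE as bars. Filled points compare 4 fasted with 4 ad libitum libraries and open diamonds fasted replicate 4 alone with the same ad libitum libraries. All 20 genes keep their sign, which is partly built in, as fasted replicate 4 is also among the libraries of the filled points. They run from Ern1 at -1.34 to Atf6b at 2.68, where the values lie farthest apart.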

How the data were processed

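Per the submitters' processing notes, reads were handled with bcl2fastq 2.17 and BWA on mm10. No source used here names the counting tool or says whether strand was used. Per the file headers, the deposited table gives raw reads (counts) and RPKM per library and, per transcript, its length and exon number (other values) and a coding-potential score. Counts were tested, and the authors' RPKM served as a check that empty count cells mean 0. The mitochondrial 16S rRNA was left out. Deposited starts count from 0 and are printed from 1. Exons and gene spans are from GENCODE vM21 (mm10). A coding gene took all transcripts sharing exon bases on either strand, so reads in overlapping transcripts can be counted more than once. The group comparison used edgeR 4.0.16 in R 4.3.3 (quasi-likelihood F test, robust, two-sided, TMM, filterByExpr, Benjamini-Hochberg adjustment over 40321 transcripts or 13034 genes, threshold 0.05). The labels call the libraries biological replicates, and no 2 held the same counts. Named are all transcripts over the pair, list genes that passed, coding neighbours within 100 kb and the 5 genes of most like pattern. The members and lists were chosen with earlier results of these data known. Alternatives were RLE scaling, library totals, DESeq2 1.42.0, limma-voom (limma 3.58.1), other filters, same-strand transcripts, the most abundant transcript, a replicate block, each library left out, and a term for fasted replicates 1 to 3. The fit without fasted replicates 1 to 3 was chosen after seeing the data. Both of these last fits rest on 1 fasted library and assume for it the spread seen in the rest. The script was tested on simulated data.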

Additional observations from a re-analysis of the deposited data

Results flagged for a closer look

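In 3 of 48 groups of 4 libraries examined, a single library lay far from the rest, and chance gives such a gap in about 1 of 20 groups. The last-exon transcript of Sel1l stood at 46.3 CPM in ad libitum replicate 3, against 55.2, 55.7 and 56.4 CPM in the other ad libitum livers. The first-intron transcript of Sel1l came to 4.64% of the last-exon transcript per kilobase in fasted replicate 4, against 8.65, 8.83 and 9.37% in the other fasted livers. Svip stood at 14.6 CPM in fasted replicate 4, against 12.6, 12.7 and 12.7 CPM in the other fasted livers.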

How the results depend on the processing

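The log2 changes of the last-exon transcript of Sel1l, the Syvn1 transcript and the Sel1l sum kept their sign under all settings run, at -0.64 to -0.52, -0.99 to -0.74 and -0.59 to -0.47 with 1 library left out. By library totals, without TMM factors, they were -0.55, -0.83 and -0.49. On that scale the groups overlap for the last-exon transcript and the Sel1l sum. The first-intron transcript of Sel1l ran from -0.08 to 0.18 with 1 library left out. With the term for fasted replicates 1 to 3 it stood at -0.65, and without these libraries at -0.65. Among the ER genes tested in each setting, 20 passed in the comparison as reported, 13 with same-strand transcripts only, 10 with the term, 11 without fasted replicates 1 to 3, and 14 to 25 with 1 library left out. Of the 20 themselves, 13, 9 and 9 passed in the first 3 of these other settings. The 8 that passed under every setting that tested them were Edem2, Entpd5, Ern1, Insig2, Ssr1, Ssr3, Ube4b and Uggt1. Over all genes, 3202 passed (1725 up, 1477 down), against 641 with the term, 562 without fasted replicates 1 to 3 and 1914 to 4324 with 1 library left out. Over transcripts, 7061 passed (3911 up, 3150 down), against 4661 with library totals, 11342 with no low-count filter, 1350 with the term, 1211 without fasted replicates 1 to 3, and 4171 to 11260 with 1 library left out. With limma-voom, 1106 genes rose and 1363 fell, and 2361 transcripts rose and 2872 fell. The cause of these differences was not tested. Over all tested transcripts, same-numbered libraries did not deviate together (correlations -0.00107 to 0.0416), so no general pairing by number was seen, and the labels state none. The Syvn1 transcript itself was higher in replicates 1 and 2 than in replicates 3 and 4 of both groups. With the replicate number as a block, 2433 genes, 5650 transcripts and 19 ER genes passed, and the log2 changes of the pair were -0.57, -0.01 and -0.86. The SE of the Syvn1 transcript was 0.11 with the block and 0.16 without it. The reads behind the first-intron and Syvn1 transcripts, 201 to 946 per library, limit their precision.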
